A study of Mus musculus with 13 samples.

Results

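Ipp is 1 of the 15176 mouse genes measured in RNA from fibroblasts, cells on the way to chemically induced pluripotency, embryonic stem cells (ESCs) and chemically induced pluripotent stem cell (CiPSC) lines. It was taken as the 1 row of the expression table with the symbol Ipp. It was chosen by measured values: its CiPSC level stood far from that of the ESC library on the same scale, and it varied between libraries of 1 group. Its own levels are therefore given as a description, with counting error and spread but with no test of groups. Tests of groups were run only on other genes.

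Ipp stands for intracisternal A particle-promoted polypeptide. Intracisternal A particles (IAPs) are mouse endogenous retroviral elements whose long terminal repeats can act as promoters, and Ipp was described from placental transcripts that started in such an element. The protein belongs to the BTB-kelch family, in which a BTB domain pairs with a partner or with the CUL3 ubiquitin ligase and the kelch repeats bind other proteins. In pluripotent cells, IAPs are normally held silent by TRIM28 and SETDB1, which bring the repressive H3K9 trimethyl mark, and by DNA methylation.

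The 13 libraries fell into 6 groups. Mouse embryonic fibroblasts (MEF, n = 3) carried the strain label C57xICR and had no treatment. The 2 Oct4-GFP negative libraries came from fibroblasts of the same strain label under VC6TF, a chemical mixture that the labels name only by this code. The Oct4-GFP positive clusters and the Oct4-GFP positive colonies, 1 library each, came from C57xICR fibroblasts under VC6TF+Z. Cells of these GFP classes were picked for RNA. CiPSC lines 6 and 11, also C57xICR, were each 1 library from VC6TFMB+Z. The 4 ESC libraries were all from line R1, strain label 129, untreated. ESCs and CiPSCs were kept on feeder fibroblasts treated with mitomycin C, so feeder RNA could be present in both. No label says whether libraries of 1 group came from separate cultures, so their spread may be technical.

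Values were RPKM, reads divided by gene length in kb and by library depth, on 2 length scales. In 10 libraries (MEF 1 to 3, both GFP-negative, clusters, colonies and ESC 1 to 3) the divisor was the whole gene span. In ESC 4 and both CiPSC lines it was the exonic length. On the span scale, depth was 8.92 to 17.8 M reads per library. The depth of the 3 exonic libraries is unknown. Of the span libraries, 7 listed genes without reads at 0, while MEF 3, colonies and ESC 3 held no 0 but 320 to 690 genes at exactly 0.001, so those 3 were written out differently.

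Cell identity was checked against markers. On the span scale, the summed RPKM of 6 pluripotency genes was 826 to 991 in ESC 1 to 3. On the exonic scale it was 1026 in ESC 4, and 1190 and 1187 in CiPSC lines 6 and 11. RPKM sums of the 2 scales cannot be ranked against each other. In colonies, a span library, the sum was 643, where Pou5f1 was 124 RPKM but Nanog was 0.0418 and Sox2 2.80. In the library labelled clusters it was 1.23, with Pou5f1, the gene that encodes Oct4, at 0.260 RPKM. The GFP-negative libraries held Pou5f1 at 0.191 and 0.429 RPKM, so the Pou5f1 level of the clusters library lay between those of the cells labelled as lacking the reporter. Ipp in colonies is therefore also set against libraries other than clusters.

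In the GENCODE vM21 annotation (GRCm38), Ipp lies on the plus strand at chr4:116507549-116538243. Both annotated transcripts, Ipp-201 and Ipp-202, have 9 exons and 1752 coding bases for 584 residues. The span is 30.695 kb and the merged exons cover 2.126 kb. With that span, Ipp values in the 10 span libraries came back as whole reads to within 0.00823 of a read. With the RefSeq span of 35.899 kb they missed whole numbers by up to 0.467, so the GENCODE model is the one whose length matches the deposited values.

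The stretch just upstream of the RefSeq gene start is shown because promoter use is the question that Ipp's name raises. It is the plus strand at chr4:116507299-116507511 (RefSeq, GRCm38.p6), 5′ to 3′, with CpG dinucleotides, the sites of DNA methylation, in capitals:

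Ipp upstream: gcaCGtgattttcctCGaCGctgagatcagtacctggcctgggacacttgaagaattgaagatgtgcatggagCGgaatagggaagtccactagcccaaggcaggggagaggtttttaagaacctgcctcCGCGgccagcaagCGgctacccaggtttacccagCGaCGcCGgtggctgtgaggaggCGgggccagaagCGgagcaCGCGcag

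These 213 bases hold 14 CpGs, most of them in the part nearest the gene. The full RefSeq window of 300 bases, which runs on into the gene, holds 21 CpGs against a median of 7 over 32851 mouse promoters, and 75.2% of those promoters have fewer. Its GC content is 61.3%, against a median of 52.7%. Searched on both strands, the window has no TATAAA (present in 13.6% of promoters) and no CCAAT (37.4%). It has 1 GGGCGG (35.7%) and 1 CACGTG (7.15%). Counted from base 116507549, where the window places the start and the GENCODE model begins, they start 34 bases after and 249 bases before it, the second near the first base printed above. These are matches of letters only. Start sites, methylation and reads over IAP repeats were not analysed here, so an IAP promoter and the annotated one cannot be told apart in these values.

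On the exonic scale, Ipp was 15.2 RPKM in CiPSC line 6 and 14.5 RPKM in line 11, against 1.19 RPKM in ESC 4. The lines differed little from each other, at 14.9 ± 0.503 RPKM (SD, n = 2), and both lay far above the single ESC library. Their mean was 12.5 times ESC 4, with an SD of 0.421 over the lines. Among the 10647 genes that passed the filter on low values, 21, Ipp included, had a ratio at least as high (0.197%). This describes how Ipp came to be chosen.

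On the span scale the 3 other ESC libraries were low. Ipp was 0.181 RPKM in ESC 1, 0.0511 RPKM in ESC 2 and 0.283 RPKM in ESC 3, from 74, 19 and 87 reads. The mean was 0.172 ± 0.116 RPKM (SD, n = 3). ESC 3 exceeded ESC 2 by 5.53 times, with a 95% exact binomial interval of 3.34 to 9.62 on the reads. These are the highest and the lowest of the 3, and the interval covers counting error only. With lengths divided out, as described below, their ratio was 4.68, and 21.7% of 11491 genes had a highest-to-lowest ratio over ESC 1 to 3 at least as high.

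Fibroblasts before treatment were low too. MEF 1, MEF 2 and MEF 3 had 0.121, 0.231 and 0.200 RPKM, from 44, 126 and 59 reads, with a mean of 0.184 ± 0.0569 (SD, n = 3). The MEF values lay inside the wider ESC range, with ESC 2 below and ESC 3 above all of them. The ratio of MEF 2 to MEF 1 was 1.91 (95% interval 1.35 to 2.76), and 66.6% of genes spread at least as widely over these 3 libraries.

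The 2 GFP-negative libraries did not resemble each other in Ipp. GFP-negative 1 had 1.07 RPKM from 363 reads (95% Poisson interval 327 to 402). GFP-negative 2 had 0.0851 RPKM from 27 reads (17.8 to 39.3). Their ratio was 12.5 (95% interval 8.48 to 19.3), at depths of 11.1 and 10.3 M reads and with the same strain label, treatment label and way of listing 0. The first lay above every MEF library and the second below every one. Of 10206 genes with enough reads in the pair, 294 (2.88%) had a ratio of GFP-negative 1 to 2 at least as high. The group mean, 0.577 ± 0.695 RPKM (SD, n = 2), describes neither library.

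Among the GFP-positive classes, Ipp was 1.24 RPKM in colonies, from 381 reads (344 to 421), and 0.0292 RPKM in the library labelled clusters, from 8 reads (3.45 to 15.8). The ratio of 42.3 (95% interval 21.2 to 98.7) compares 2 libraries that list undetected genes in different ways, with no replicate of either. With lengths divided out it was 37.7, and 529 of 10716 genes with enough reads (4.94%) had a ratio at least as high. Over all 10 span libraries, 33.7% of 10208 genes had a highest-to-lowest ratio at least as high as Ipp's. Against libraries written out in the same way, colonies were 6.19 times MEF 3 (4.69 to 8.28) and 4.37 times ESC 3 (3.45 to 5.58). Colonies and GFP-negative 1 were close, at a ratio of 1.16 (1.0 to 1.34). All these intervals address counting error only. Reads amplified by PCR are not independent molecules, so the intervals may be too narrow even for that error.

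**Figure D1:**
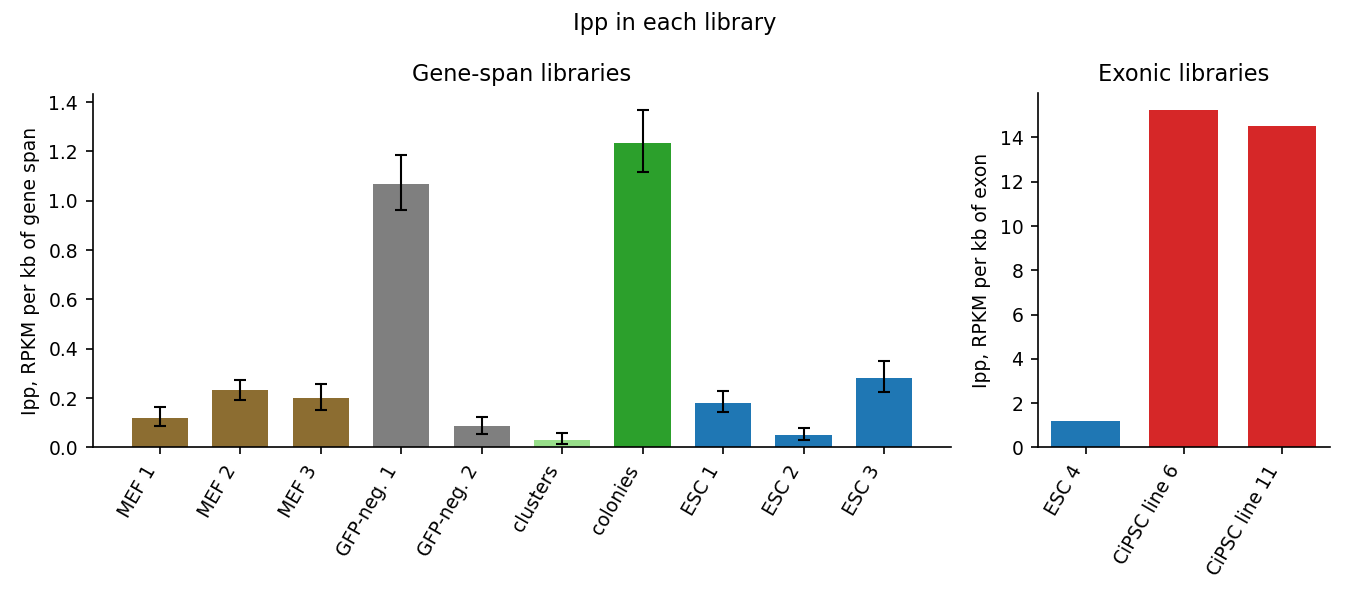
Ipp in each of the 13 libraries, in RPKM on a linear axis, with the 10 gene-span libraries on the left and the 3 exonic libraries on the right on an axis of their own. Bars are single libraries and lines are 95% Poisson intervals of the reads; GFP-negative 1 (1.07) and colonies (1.24) stand above the other span libraries, and both CiPSC lines (15.2 and 14.5) above ESC 4 (1.19).

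To set all libraries on 1 axis, each value was multiplied by the length its scale divides by and expressed as assigned RPM, the share of all reads assigned to genes with a length, scaled as reads per M. CiPSC lines 6 and 11 were highest, at 67.5 and 64.1 RPM. Colonies had 50.2 and GFP-negative 1 had 48.8. The other 9 libraries lay far below, in the order ESC 3 (11.5), MEF 2 (10.4), ESC 1 (8.77), MEF 3 (7.43), MEF 1 (5.45), ESC 4 (5.30), GFP-negative 2 (3.89), ESC 2 (2.45) and clusters (1.33).

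No library fell between 11.5 and 48.8 RPM. Among the groups with more than 1 library, the order of means was CiPSC (65.8 ± 2.40, SD, n = 2), GFP-negative (26.3 ± 31.7, n = 2), MEF (7.76 ± 2.50, n = 3) and ESC (7.0 ± 3.95, n = 4). Colonies fell between CiPSC and GFP-negative, and clusters below ESC. MEF and ESC did not differ beyond their spread, and GFP-negative, with a member on each side of the gap, could not be placed apart from its neighbours. ESC 4 lay inside the range of ESC 1 to 3 on this axis. The lower CiPSC line was 5.58 times the highest ESC library (4.53 to 6.97 from the reads of ESC 3). Of 9593 genes with a length, 5, Ipp included, had a ratio at least as high (0.0521%).

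Crossing between scales carries its own error. Over the same 9593 genes, ESC 4 relative to the mean of ESC 1 to 3 ran from 0.259 to 2.02 between the 10th and 90th percentiles, with a median of 0.802, although all 4 libraries came from 1 line. Ipp, at 0.700, was near the middle of that spread.

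**Figure D2:**
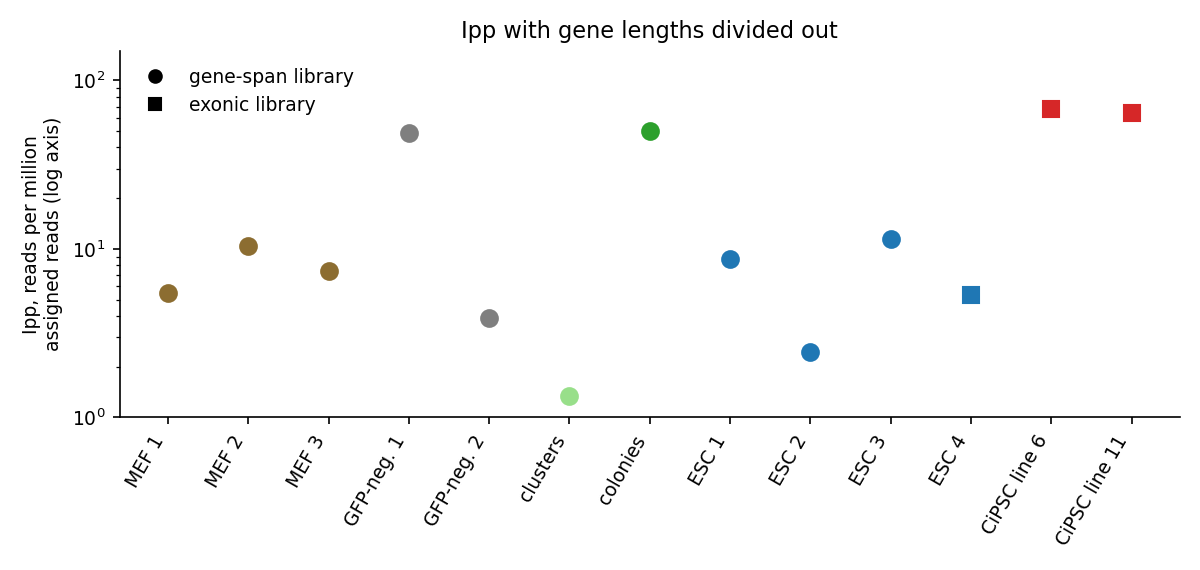
Ipp in each library in assigned RPM, with gene lengths divided out, on a log axis. Circles are gene-span and squares exonic libraries; 4 libraries lie at 48.8 or above and 9 at 11.5 or below.

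The 4 high libraries, CiPSC lines 6 and 11, colonies and GFP-negative 1, come from 3 groups and share the strain label C57xICR. So do 5 low libraries: MEF 1 to 3, GFP-negative 2 and clusters. The label 129 occurs only in ESCs. Strain and ESC origin therefore cannot be told apart in the CiPSC comparison, while within C57xICR Ipp ranged from 1.33 to 67.5 RPM.

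How many other genes shared this split was counted without a test, since Ipp's own values had picked out the 4 libraries. In 13 of 9593 genes the lowest of the 4 exceeded the highest of the other 9. For Ipp that ratio was 4.25, the highest of all, followed by Gpx2, a glutathione peroxidase, at 1.34 and B4galt3, a galactosyltransferase, at 1.3. Klf4, a pluripotency transcription factor, was among the 13, at 1.07. In 17 genes the split ran the other way, led by the smooth muscle genes Cnn1 (1.45), Tagln (1.21) and Acta2 (1.21). Ratios this close to 1 are well inside the spread between scales given above.

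Within each scale the same count needs no crossing. Of 12201 genes with 100 reads or more over the span libraries, 9 (0.0738%) had the lower of GFP-negative 1 and colonies at 4.25 times or more the highest of the other 8, as Ipp had. Of the 12201 genes, 17 (0.139%) had the lower CiPSC line at 12.2 times or more ESC 4. Ipp was the only gene in both sets. The other 8 of the 9 were Ppp1r3g, Ly6c2, Reln, Isg20, Btn2a2, Ahsg, Akr1c13 and Il1a. Their median ratio of the lower CiPSC line to ESC 4 was 1.06 and the highest was 2.59, for Ppp1r3g, a glycogen-targeting subunit of protein phosphatase 1. With 0.139% of all genes at Ipp's CiPSC ratio, nothing is read from the other 8 falling short of it. Within the 7 libraries that list 0, GFP-negative 1 was 4.62 times the next highest in Ipp.

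**Figure D3:**
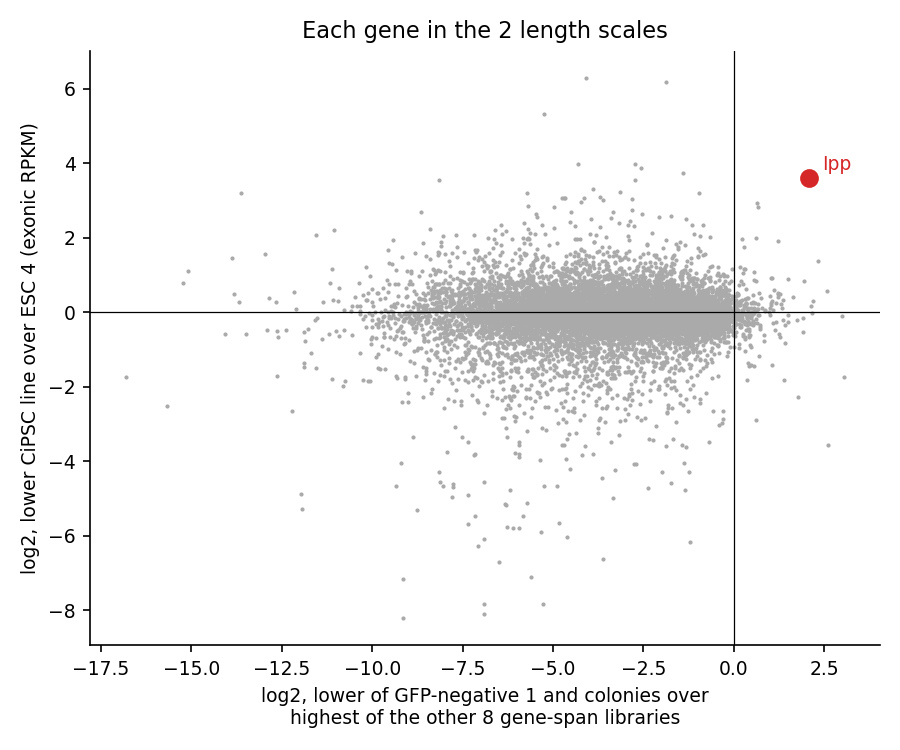
Each point is 1 of 12201 genes, with log2 of the lower of GFP-negative 1 and colonies over the highest of the other 8 span libraries on the horizontal axis, and log2 of the lower CiPSC line over ESC 4 on the vertical axis. Ipp (red; ratios 4.25 and 12.2) lies high on both axes and apart from the other genes at the right, whose vertical ratios reach 2.59 at most among those at or beyond Ipp's 4.25.

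Markers of other cells were set beside these values. The summed RPKM of 5 fibroblast genes (Col1a1, Col1a2, Thy1, Postn, Twist1) was 607 to 2380 in MEF, 192 and 239 in GFP-negative 1 and 2, 156 in clusters and 39.3 in colonies. On the exonic scale it was 10.6 in ESC 4 and 1.67 and 0.852 in the CiPSC lines, with Postn at 0.00606 and 0.00357 in the latter. Within the exonic scale, the CiPSC lines were higher than ESC 4 in Ipp and lower in this sum. The MEF libraries held Ipp at 5.45 to 10.4 RPM. The share of feeder RNA in any Ipp value was not tested.

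Macrophage genes (4 of 5 in the table) summed to 188 RPKM in MEF 3, 20.8 in colonies and 0.270 in GFP-negative 1, where Lyz2 was listed at 0. On the exonic scale they summed to 42.4 and 41.0 in CiPSC lines 6 and 11 and 34.7 in ESC 4. Most of these exonic sums was Laptm5 (32.8, 32.3 and 25.3 RPKM), while Csf1r was at most 0.00881 RPKM. In colonies most of the sum was Cd68 (15.8 RPKM). GFP-negative 1, high in Ipp, was the lowest of the 10 span libraries in the macrophage sum. GFP-negative 2 had 1.55 in the macrophage sum. In pluripotency genes GFP-negative 1 and 2 summed to 0.639 and 1.68 RPKM, so GFP-negative 1 was the lower of the pair in all 3 marker sums. The part of these differences in the Ipp values was not tested. In bulk RNA, more cells with the transcript and more transcript per cell cannot be told apart.

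Neighbouring genes on chromosome 4 were set beside Ipp as a description. Distances here and below run between RefSeq gene bounds, where Ipp ends at 116543410, against 116538243 in the GENCODE model. The 5 measured genes on each side, from 1520402A15Rik (Lurap1 in RefSeq), 363 kb before Ipp, to Akr1a4 (Akr1a1 in RefSeq), 93.1 kb after it, had CiPSC-to-ESC 4 ratios of 0.759 to 2.43, against 12.5 for Ipp. The nearest, Tmem69, a membrane protein gene 8.12 kb away, was 4.18 and 6.14 RPKM in CiPSC lines 6 and 11 and 4.47 RPKM in ESC 4. Gpbp1l1, 13.8 kb away and related to the promoter-binding protein GPBP1, had 13.1 and 12.0 RPKM against 8.09. Mast2, a kinase gene 43.3 kb before Ipp, had 5.72 and 5.30 RPKM against 4.54. The highest ratio among the neighbours, 2.43, was that of Tspan1 at 0.204 and 0.251 against 0.0936 RPKM. Ipp was chosen for its ratio, which 0.197% of all genes reached, so nothing is read from the neighbours falling short of it.

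For these genes and those below, CiPSC was compared with ESC by limma on log2(RPKM + 1) over all 10647 genes, with a term for the length scale, so that the contrast rests on ESC 4. A call needed a log2 change of at least 1 in either direction and a Benjamini-Hochberg adjusted p below 0.05. By this rule 0.16% of genes were called in CiPSC against ESC, 15.9% in ESC against MEF and 7.62% in GFP-negative against MEF. At an unadjusted p under 0.05 there were 507, 3950 and 2745 genes, among them 11, 35 and 21 of the 78 genes tested from the lists below and the neighbours. None of the 6 testable neighbours was called in CiPSC against ESC (median log2 change 0.26, against 0.02 over all genes) or in GFP-negative against MEF. In ESC against MEF, 2 of 6 rose: Nasp, a histone chaperone gene, by 2.96 ± 0.29 (log2 change and SE; limma adjusted p = 0.000245), and Gpbp1l1 by 1.5 ± 0.35 (adjusted p = 0.0164).

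Between the 2 GFP-negative libraries some neighbours differed as well, without a test. Gpbp1l1 was 4.05 RPKM in GFP-negative 1 and 0.769 RPKM in GFP-negative 2, a ratio of 5.27. Nasp was 1.3 and 0.169 RPKM, a ratio of 7.70. Tmem69, between Ipp and both of these, went the other way, at 0.273 and 0.472 RPKM. Mast2 and Pomgnt1, a glycosyltransferase gene, were also lower in GFP-negative 1, at ratios of 0.442 and 0.200. Colonies exceeded clusters in Ccdc17 (24.9 times, at 0.772 and 0.0310 RPKM), Nasp (13.1 times), Tmem69 (5.45), Pomgnt1 (4.12), Akr1a4 (3.61) and 1520402A15Rik (2.71). Tspan1 was 0.608 RPKM in colonies and listed at 0 in clusters. Colonies were lower in Gpbp1l1 (0.398), Pik3r3 (0.261) and Mast2 (0.239). Colonies and clusters list undetected genes differently. Against the libraries written out like it, colonies had 3.43 RPKM of Nasp (MEF 3 1.58, ESC 3 19.6), 2.13 of Tmem69 (1.04 and 3.89) and 0.152 of Mast2 (0.593 and 0.543). Neighbours thus differed in both directions in each pair of libraries, and the order in colonies depended on the library set beside it.

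**Figure D4:**
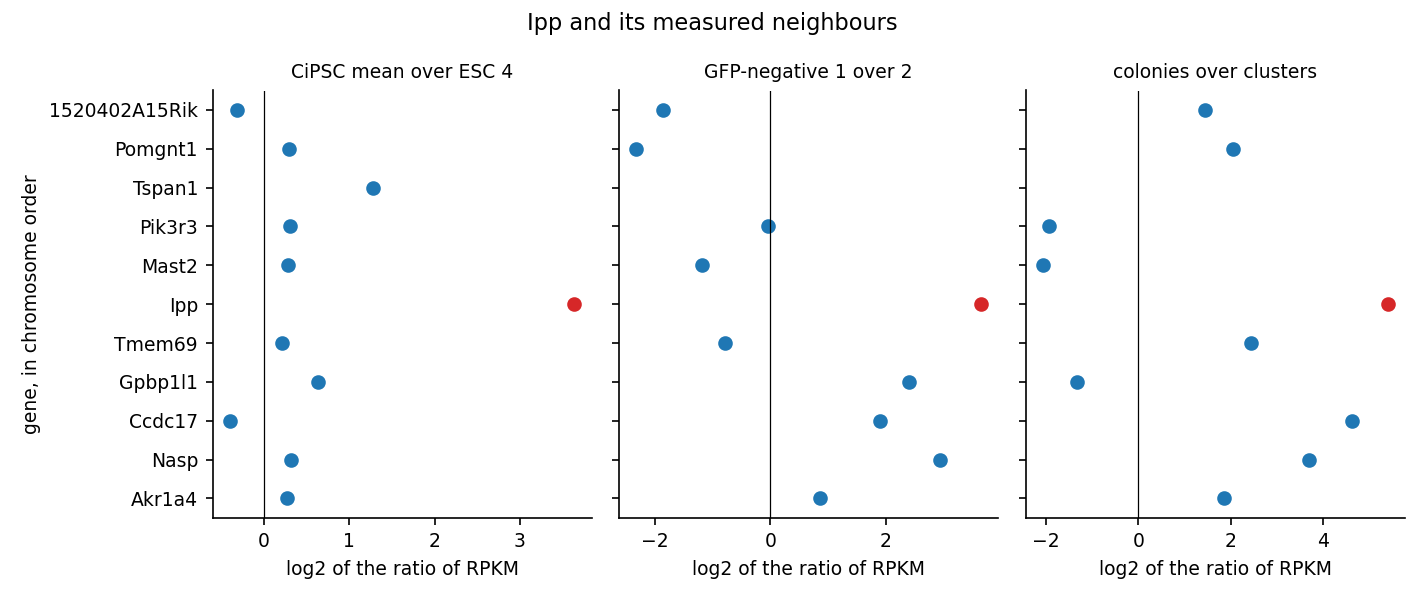
Log2 ratios of RPKM for Ipp (red) and the 5 measured genes on each side (blue), in chromosome order from top to bottom, for CiPSC mean over ESC 4, GFP-negative 1 over 2, and colonies over clusters, 2 libraries that list undetected genes differently. Ipp, which was chosen by its values, has the highest ratio in each panel (12.5, 12.5 and 42.3). The neighbours' CiPSC ratios lie between 0.759 and 2.43. Tspan1 has no point where it was listed at 0.

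Factors that silence retroviral elements were read as a list of 27, of which 26 were measured and all 26 tested. None was called in CiPSC against ESC, where 0.16% of all genes were, and the median log2 change was 0.11. The smallest p belonged to Dnmt3l, the cofactor of de novo DNA methyltransferases, at 28.5 and 37.5 RPKM in the CiPSC lines and 16.0 RPKM in ESC 4, a log2 change of 0.99 ± 0.29 (limma adjusted p = 0.445). Atrx, a chromatin remodeller that deposits histone H3.3, was 12.8 and 12.6 RPKM against 6.26 (0.92 ± 0.28, adjusted p = 0.486). Dnmt3b, a de novo DNA methyltransferase, was 16.4 and 19.9 RPKM against 10.1 (0.78 ± 0.27, adjusted p = 0.706). Ehmt1, a histone H3K9 methyltransferase, was 7.11 and 7.52 RPKM against 5.14 (0.44 ± 0.21). None of these 4 was lower in the CiPSC lines.

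Trim28 and Setdb1, the corepressor and its H3K9 methyltransferase, were at like levels on the exonic scale. Trim28 was 201 and 216 RPKM in the CiPSC lines and 212 RPKM in ESC 4. Setdb1 was 13.4 and 13.8 RPKM against 12.5. With lengths divided out, both CiPSC lines exceeded all 4 ESC libraries in 6 of the 26 factors and lay below all 4 in 2, against 1023 and 1528 of 9593 genes.

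The same list was also compared between fibroblasts and ESCs. Whether the RNA levels of these factors bear on Ipp was not tested. In ESC against MEF, 13 of 26 factors rose and none fell, while over all 10647 genes 846 rose and 849 fell. The median log2 change was 1.08 against 0.14 over all genes. The 13 were Trim28 (2.35), Setdb1 (1.10), Cbx1 (1.97), Cbx5 (1.39), Dnmt3b (3.09), Dnmt3l (2.38), Uhrf1 (1.95), Hells (1.67), Zfp57 (3.15), Atrx (1.06), Morc3 (1.28), Suv39h2 (1.35) and Rif1 (2.22). Zfp57, a zinc finger protein that recruits TRIM28, was 36.6, 37.3 and 18.7 RPKM in ESC 1 to 3 and 1.59, 2.69 and 3.26 RPKM in MEF 1 to 3. In GFP-negative against MEF, where 7.62% of all genes were called, no factor was (median −0.37, against −0.13 over all genes). Trim28 was 13.6 and 3.63 RPKM in GFP-negative 1 and 2 against 17.6 to 39.7 in MEF (limma adjusted p = 0.128).

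Of the 4 genes for oxidation and removal of methylcytosine, 3 were tested. None was called in CiPSC against ESC, where 0.16% of all genes were. Tet1, a methylcytosine dioxygenase, was 17.3 and 16.5 RPKM in the CiPSC lines and 14.7 RPKM in ESC 4. Its relative Tet2 was 6.53 and 6.75 RPKM against 6.09. In ESC against MEF, Tet1 rose by 3.01 and Tet2 by 1.09 on the log2 scale. Tdg, the thymine DNA glycosylase gene, was 11.5 and 11.4 RPKM against 14.0 and was not called.

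All 33 listed genes of the BTB-kelch family and the CUL3 ligase were measured, and 26 were tested. None was called in CiPSC against ESC, with a median log2 change of 0.04. Kbtbd11 had the smallest p, at 0.0685 and 0.0593 RPKM in the CiPSC lines and 1.74 RPKM in ESC 4 (−1.37 ± 0.29, limma adjusted p = 0.169). Klhl8 was 4.10 and 3.83 RPKM against 2.06 (0.70 ± 0.18, adjusted p = 0.347). Klhl2 and Klhl24 differed by −0.26 and 0.42. Kbtbd11 thus differed from ESC 4 in the direction opposite to Ipp, and Klhl8 in the same direction. No tested relative was called with all libraries. Since 0.16% of all genes were called in this comparison, nothing is read from that about the family. With lengths divided out, Kbtbd11 was 1.02 and 0.879 RPM in the CiPSC lines, inside the 0.264 to 29.6 of ESC 1 to 3, with ESC 4 at 26.0. It was called without ESC 3.

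In the other 2 comparisons the family gave 3 calls. Kbtbd8, an adaptor known from neural crest specification, was 3.50, 4.17 and 1.48 RPKM in ESC 1 to 3 and 0.05 to 0.158 RPKM in MEF, and rose by 1.83 ± 0.25 (adjusted p = 0.0014). In GFP-negative against MEF, Kbtbd4 fell by 1.53 ± 0.32 (limma adjusted p = 0.0205), at 0.459 and 1.24 RPKM against 2.84 to 6.34. Klhl23 fell by 1.29 ± 0.30 (adjusted p = 0.0301), at 0.00614 and 0.0724 RPKM against 0.735 to 2.23. Both calls were lost without GFP-negative 1, without MEF 2 and with no term for the length scale, and that of Klhl23 also without GFP-negative 2 or MEF 1. These 2 of 26 are near the 7.62% over all genes, so nothing is read from them about the family. Both GFP-negative libraries were below all MEF libraries in these genes, while in Ipp they lay on opposite sides of MEF.

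Of 17 genes recalled as lying near promoter-active or variably methylated IAP elements, 14 were measured and 10 tested. None was called in CiPSC against ESC, ESC against MEF or GFP-negative against MEF, where 0.16%, 15.9% and 7.62% of all genes were. Still, 2 came close to the size of change required. Rab6b, a Golgi transport GTPase gene, was 0.609 and 1.3 RPKM in GFP-negative 1 and 2 and 0.0385 to 0.0956 RPKM in MEF (0.86 ± 0.15, limma adjusted p = 0.0109). It was called with a pseudocount of 0.1 (2.63) and without GFP-negative 1 (1.11). Unlike Ipp, it was higher in GFP-negative 2 than in GFP-negative 1. Mbnl1, a splicing regulator gene, was 0.173 to 0.226 RPKM in ESC 1 to 3 and 0.807 to 1.75 RPKM in MEF (−0.99 ± 0.18, limma adjusted p = 0.00565). It was called with a pseudocount of 0.1 (−2.27), with upper-quartile scaling (−1.02), without MEF 3 (−1.19) and without ESC 1 (−1.01). The median log2 change in CiPSC against ESC was −0.03, and the 4 with the smallest p, Diap3 (−0.28), Wdfy1 (0.30), Tfpi (−0.18) and Bmf (0.22), had CiPSC levels near those of ESC 4. Diap3, a formin gene, was 3.97 and 3.67 RPKM against 4.83. Wdfy1 was 4.80 and 4.27 RPKM against 3.50. In none of these 4 did the CiPSC lines and ESC 4 differ by even 1.5 times.

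Genes linked to another retroviral element, MERVL, whose repeats drive transcripts in cells resembling the embryo after its first division, differed more. Of 18 listed, 9 were measured and 5 tested, and 2 rose in CiPSC against ESC, where 13 of all 10647 genes rose. Gm4340 was 41.3 and 31.4 RPKM in the CiPSC lines against 2.09 RPKM in ESC 4 (3.58 ± 0.42, limma adjusted p = 0.0123). Zscan4d, a zinc finger gene of the Zscan4 cluster, was 4.96 and 4.01 RPKM against 0.507 (1.86 ± 0.26, adjusted p = 0.0359). Zscan4f (2.27 ± 0.52, adjusted p = 0.222) and Zscan4c (2.09 ± 0.49, adjusted p = 0.254) missed the threshold.

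These 2 calls rest on ESC 4, which was itself low. With lengths divided out, Zscan4d was 23.5 and 18.9 RPM in the CiPSC lines, inside the 12.8 to 24.1 of ESC 1 to 3, and ESC 4 was 2.41. Gm4340 was 112 and 85.0 RPM, above the 31 to 56.3 of ESC 1 to 3, with ESC 4 at 5.69. Ipp differed in this respect, since ESC 4 was no lower than the lowest of ESC 1 to 3. Zscan4 genes and Gm4340 have near-identical copies, so reads may be split among them. Both calls were lost when either CiPSC line was left out, with a pseudocount of 0.1 in place of 1, and with no term for the length scale. Neither gene resembled Ipp in GFP-negative 1, where both were listed at 0.

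Genes known to differ between C57BL/6 and 129 mice were few in the table: 4 of 6 were measured and 2 tested, and neither was called. Nnt, the mitochondrial nicotinamide nucleotide transhydrogenase gene, was 3.36 and 3.32 RPKM in the CiPSC lines and 2.04 RPKM in ESC 4 (0.51 ± 0.22, limma adjusted p = 0.978). Entpd4, a nucleotide-hydrolysing enzyme gene with a near-identical copy, was 1.37 and 1.29 RPKM against 4.34 (−1.20 ± 0.33, adjusted p = 0.397). That difference rests on ESC 4. With lengths divided out, Entpd4 was 23.1 and 21.6 RPM in the CiPSC lines, inside the 19.2 to 25.2 of ESC 1 to 3, with ESC 4 at 73.2. ESC against MEF also crosses the strain labels, together with cell type. There Entpd4 differed by −0.72 ± 0.22 (limma adjusted p = 0.0429), short of the size of change required. It was called with a pseudocount of 0.1 (−1.34). The MEF libraries held it at 44.7 to 90.7 RPM. With the main settings no gene of this list was called in either comparison, and no sequence variants were analysed here.

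**Figure D5:**
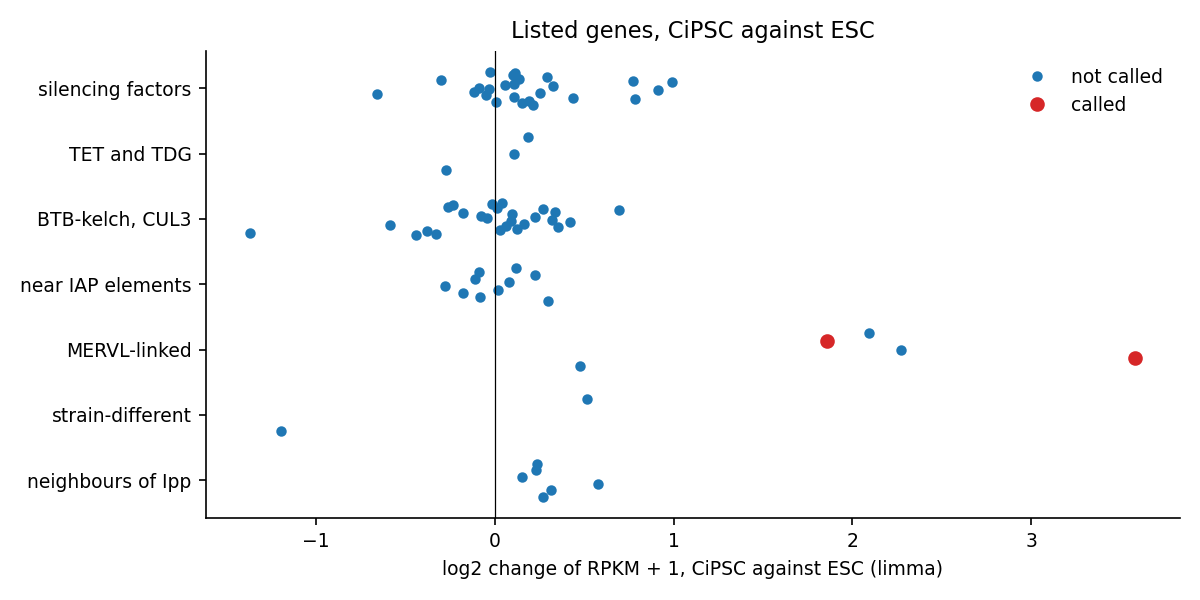
Log2 change of RPKM + 1 in CiPSC against ESC (limma) for each tested gene of the lists, 1 row per list, with called genes in red. Silencing factors, TET and TDG genes, BTB-kelch genes, genes near IAP elements, strain-different genes and neighbours hold no called gene; Gm4340 (3.58) and Zscan4d (1.86) of the MERVL-linked list are the called ones, and Ipp is not plotted because it was not tested.

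The genes most like Ipp over the 10 span libraries were found by Pearson's r on log2(RPKM + 1) among 8607 genes. They were Soat2 (r = 0.96), a sterol acyltransferase, Ahsg (0.95), a liver plasma protein, Il2rg (0.94), the common cytokine receptor chain, Ptgr1 (0.92), a prostaglandin reductase, and Prkab1 (0.92), a subunit of the kinase AMPK. These are descriptions over 10 libraries in which GFP-negative 1 and colonies carry most of the spread. Soat2 was 1.29 RPKM in GFP-negative 1 and 1.53 RPKM in colonies, and at most 0.417 RPKM in the other 8 libraries. In the CiPSC lines it was 0.400 and 0.379 RPKM against 0.424 RPKM in ESC 4.

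The other 4 had CiPSC-to-ESC 4 ratios of 1.22 (Ahsg), 0.933 (Il2rg), 1.48 (Ptgr1) and 1.02 (Prkab1). Since 0.197% of all genes reached Ipp's ratio of 12.5, nothing particular to these 5 is read from their lower ones. Without GFP-negative 1, only 1 of the 5 was again among the top 5.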

How the data were processed

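The authors deposited 1 table of RPKM values for 13 libraries of total RNA. TopHat 1.3.0 and build mm9 are named per the submitters' processing notes; no source used here names the counter, annotation or strand handling. Gene lengths were taken from GENCODE vM21 (GRCm38) for 13671 of 15176 genes (90.1%); 8 rows sharing 1 symbol were left out. In the 10 span libraries, 71.6 to 82.3% of low values were whole multiples of 1 read over span (tolerance 0.05), against 11.9 to 12.4% in the other 3, whose values on exonic length give 0.478 to 0.481 assigned reads per read. This gave depth and Ipp reads, with 95% exact Poisson intervals.

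The 10647 genes that reached 1 RPKM in 2 or more libraries were fitted with limma 3.58.1 (R 4.3.3) on log2(RPKM + 1), pseudocount 1, with group and length scale as terms, 6 residual degrees of freedom and Benjamini-Hochberg adjustment. Fold changes on that scale understate low genes. The fit was tested on simulated data. Ipp itself was given no test. Named genes were Ipp, the 5 measured neighbours on each side, the 5 genes most like it, and from each list up to 4 with the smallest p in CiPSC against ESC plus called ones. Others named by their split of the libraries, and members beside these, were chosen after their values were seen. Ipp and all lists were chosen with earlier results of these data known. Alternatives were another pseudocount, scaling, no filter, no scale term, the replicate number as a block and leaving out libraries.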

Additional observations from a re-analysis of the deposited data

Results flagged for a closer look

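The 8 neighbours of Ipp with a gene length were searched for a library standing apart among the 4 ESC libraries, by Dixon's gap criterion. Chance alone picks out about 1 group in 20, and 8 were examined. Ipp, chosen in part by its spread, was left out. Tmem69, the nearest neighbour, was 65.6 assigned RPM in ESC 2 against 19.3 to 23.1 in the other 3, a gap of 0.918 of the range. Ccdc17, 53.3 kb after Ipp, was 9.82 in ESC 2 against 0 to 0.396, a gap of 0.960 of the range. ESC 2 was the lowest ESC library in Ipp, at 2.45.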

How the results depend on the processing

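Ipp kept its direction in every ratio tried, but nothing is read from this. A pseudocount added to both sides cannot reverse a ratio, each CiPSC line alone lay above ESC 4, and Ipp was chosen by these values. CiPSC over ESC 4 was 11.6 with a pseudocount of 0.1 and 12.2 to 12.8 with 1 line left out; GFP-negative 1 over 2 was 6.31 and colonies over clusters 10.3 with that pseudocount, as its construction makes low values count less. Listed calls were less stable. In CiPSC against ESC the 2 became 0 with pseudocount 0.1 and 0 with no term for the length scale, and ranged from 0 (without either CiPSC line) to 5 (without ESC 3); the fit without ESC 4 was not run because the contrast needs it. In ESC against MEF the 22 ranged from 18 to 23 with a library left out. In GFP-negative against MEF the 2 became 10 with pseudocount 0.1 and 0 with no scale term, and ranged from 0 (without MEF 2) to 8 (without GFP-negative 2), with 1 without MEF 1 and 4 without MEF 3. A replicate block over libraries numbered 1 and 2 gave 11 calls in ESC against MEF and 0 in GFP-negative against MEF; the same libraries without that term, an alternative chosen after seeing the data, gave 16 and 1. Same-numbered libraries did not deviate together over genes (correlations −0.0417, −0.0673 and 0.0826). With only 1 difference per group, this cannot exclude that the numbers pair them. Of the 5 genes most like Ipp, 0 were among the top 5 by Spearman's rho, 2 with pseudocount 0.1 and 1 without GFP-negative 1. The causes were not tested. Depth limits Ipp most in clusters, with 8 reads.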
